A study of Homo sapiens with 3 samples.

Results

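The genes described here are 37 human genes of base excision, mismatch, nucleotide excision and end-joining repair, with the direct-reversal gene MGMT, out of 19775 genes that the arrays name. They were taken by name, from their known roles in repair, as every probe set that the platform annotation gives to 1 of them and to no other gene. The cells were NCI-H1650, a human line long kept in culture that came from an adenocarcinoma of the lung, grown in RPMI-1640 with serum. One array held control cells, another held cells given 40 μM colossolactone H for 12 h, and the last held cells given 40 μM for 24 h. Colossolactone H is a triterpenoid of the fungus Ganoderma colossum. Neither the collection time of the control nor a vehicle is given in the labels. With 1 array in each of 3 groups there is no replicate spread, so no test, standard error or p-value is given, and each difference describes these arrays only.

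DNA damage of different kinds is handled by different sets of proteins. In base excision repair a glycosylase cuts a damaged base from the sugar, APEX1 nicks the strand, and POLB, XRCC1 and a ligase close the gap, while PARP1 and PARP2 bind the break. Mismatch repair finds errors left by the replicating polymerase through pairs of MSH proteins. Nucleotide excision repair opens the helix around a bulky lesion and cuts on either side of it. End joining rejoins broken ends through the Ku dimer (XRCC5 and XRCC6), the kinase DNA-PKcs (PRKDC), the nuclease Artemis (DCLRE1C) and the ligase complex of LIG4, XRCC4 and NHEJ1, and MGMT lifts an alkyl group directly from guanine.

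Each array held 54675 probe sets, of which 27227 to 27388 lay above the floor of 61.4 signal units, the 50th percentile of all values. A gene takes its brightest single-gene probe set, signals under the floor are set to it, and 12351 genes exceeded it on at least 1 array. All 6 epithelial markers read were measured, from KRT18 at 23650.3, 21677.7 and 23141.6 units to KRT19 at 1702.8, 1171.3 and 1119.8 units. The order control array, 12 h array, 24 h array is kept throughout. EPCAM read 13032.6, 13754.3 and 13538.2 units, and KRT19 was at -0.54 and -0.60 on the log2 scale. Of 4 lung lineage markers NKX2-1, the defining one, lay under the floor on all arrays, NAPSA exceeded it at 24 h alone (74.9 units), and the surfactant genes SFTPB (235.6, 183.8 and 186.1 units) and SFTPC (84.3, 161 and 131.6 units) exceeded it on all. The leukocyte markers PTPRC, CD3E and CD14 and the stromal and endothelial markers DCN, LUM, VWF and CDH5 lay under it on all arrays. The leukocyte marker ITGAM exceeded it in the control alone (73.7 units). The collagens COL1A1 (729.8, 689.2 and 495 units) and COL3A1 (876.9, 650.4 and 584.9 units) and the endothelial PECAM1 (137.1, 98.3 and 89.3 units) exceeded it on all arrays and were lower at both times. The 3' to 5' signal ratio, which reflects the state of the RNA, was 4.95, 5.38 and 6.55 for ACTB and 1.21, 1.25 and 1.24 for GAPDH. The part of these marker and ratio values in the differences was not tested. In RNA of whole cultures, fewer cells that make a transcript and less of it in each cell cannot be told apart.

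Single-gene probe sets were found for 34 of the 37 genes, 80 probe sets in all, and the brightest one of each of the 34 lay above the floor on all 3 arrays. NEIL1, PMS2 and NHEJ1 have only probe sets that the annotation shares with another gene, so no gene value is given for them. As a group the repair genes lay close to their control level. The median log2 difference of the 34 was -0.02 at 12 h and -0.01 at 24 h, beside 0.00 at both times over all 12351 measured genes. Both comparisons share the control array. At 12 h 18 of the 34 were lower than in the control, and at 24 h 17 were, beside 48.4% and 49.9% of all measured genes. The range ran from -0.41 (ERCC6) to 0.45 (MUTYH) at 12 h and from -0.85 (OGG1) to 0.65 (MBD4) at 24 h. At 12 h no repair gene was 1.5-fold higher or lower, where 3.41% of measured genes were 1.5-fold higher and 3.1% lower. At 24 h MBD4 was the 1 repair gene past 1.5-fold higher and OGG1 the 1 past it lower, beside 4.09% and 4.91% of measured genes. Both values are those of the brightest probe set, and other probe sets of these genes did not share them. A dimmer probe set of TDG was at 0.99 at 24 h, where its brightest was at 0.02. By the brightest probe set no repair gene reached 2-fold, as 0.883% of measured genes did at 12 h and 1.23% at 24 h. Within 0.30 of the control at both times lay 19 of the 34, and 57.6% of all measured genes.

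**Figure D1:**
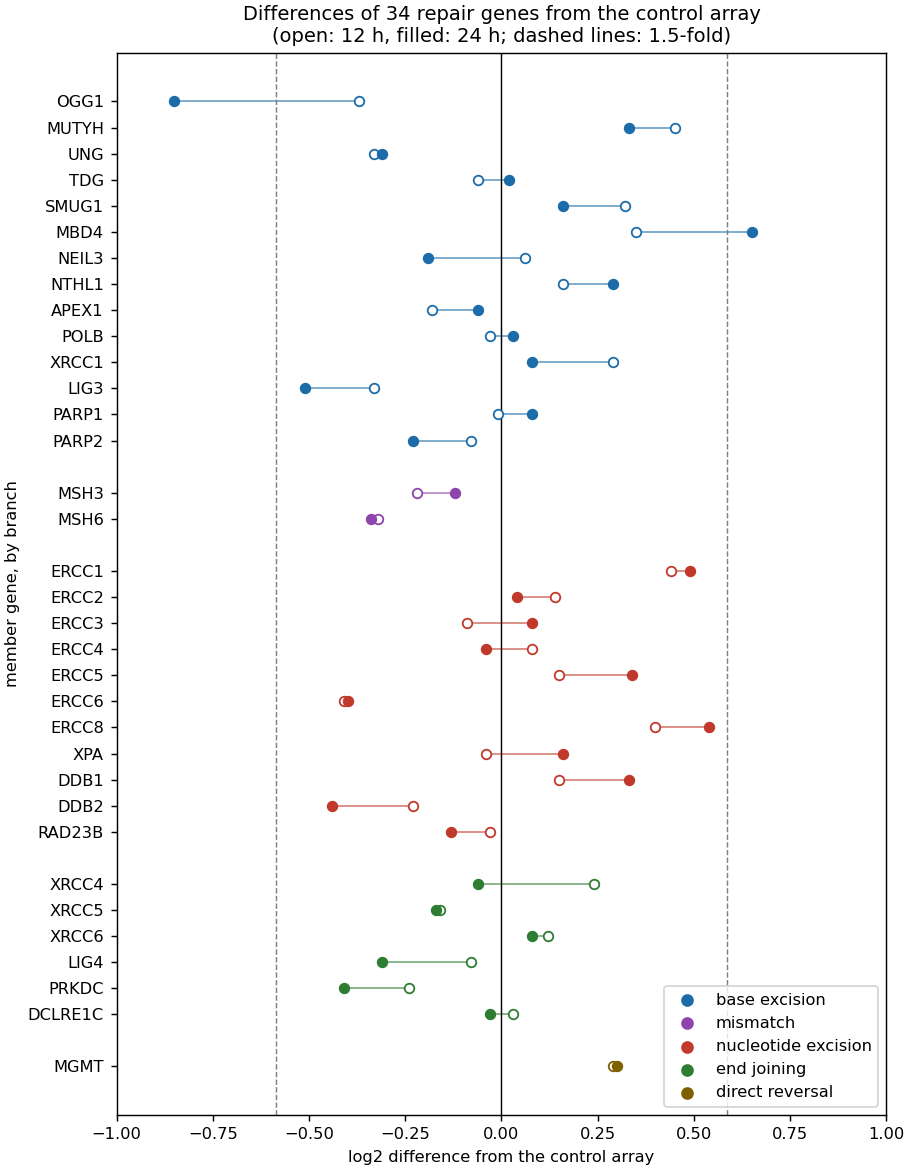
Log2 difference from the control array (horizontal axis) of the 34 repair genes with a single-gene probe set (vertical axis, by branch). Open points are the 12 h array, filled points the 24 h array, lines join the points of a gene, and dashed lines mark 1.5-fold. Only MBD4 at 0.65 and OGG1 at -0.85 pass a dashed line, both at 24 h.

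The branches differed from one another by small amounts. Nucleotide excision genes had a median of 0.08 at both times, with 7 of 11 higher at 24 h. Base excision genes lay at -0.02 and 0.02, with 8 of 14 higher at 24 h. End-joining genes lay at -0.02 and -0.11, and 5 of 6 were lower at 24 h. Of all 12351 measured genes 6022 were higher and 6166 lower at 24 h. The branch counts include genes close to the control, such as ERCC2 at 0.04, TDG at 0.02 and DCLRE1C at -0.03 at 24 h. The measured mismatch genes, MSH3 and MSH6, were both lower at both times, at a median of -0.27 and -0.23. As medians over the probe sets of each gene, the nucleotide excision value at 12 h turned to -0.04 and the mismatch value to -0.15. With 1 array a group these gaps between branches could not be tested.

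Promoter windows were read from RefSeq (GRCh38.p14) to set sequence beside these values, and 33 of the 37 genes have at least 1. The windows of MSH3 and XRCC6 are shown because they are the only ones among those 33 genes with the E2F octamer TTTCGCGC or TTTGGCGC, the core of sites bound by the S-phase regulators of the E2F family. Those of MBD4 and ERCC8 are shown because these genes had the highest differences of the 34 at 24 h, and both start head-to-head with another gene. Each runs 5′ to 3′ on the gene's strand from 250 bases before its start to 50 bases after it. Capitals mark, on either strand, the E2F octamer, the CCAAT box (CCAAT) and the GC box (GGGCGG), and neighbouring marks can touch or overlap. The windows lie at chr5:80654402-80654701 (plus strand) for MSH3, chr22:41621045-41621344 (plus) for XRCC6, chr3:129439899-129440198 (minus) for MBD4 and chr5:60945021-60945320 (minus) for ERCC8.
MSH3: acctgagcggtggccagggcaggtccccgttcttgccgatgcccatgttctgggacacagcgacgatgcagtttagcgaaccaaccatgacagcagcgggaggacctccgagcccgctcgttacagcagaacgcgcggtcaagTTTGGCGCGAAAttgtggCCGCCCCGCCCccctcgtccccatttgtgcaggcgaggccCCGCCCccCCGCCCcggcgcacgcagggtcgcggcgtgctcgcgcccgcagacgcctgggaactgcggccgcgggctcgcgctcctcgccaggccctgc
XRCC6: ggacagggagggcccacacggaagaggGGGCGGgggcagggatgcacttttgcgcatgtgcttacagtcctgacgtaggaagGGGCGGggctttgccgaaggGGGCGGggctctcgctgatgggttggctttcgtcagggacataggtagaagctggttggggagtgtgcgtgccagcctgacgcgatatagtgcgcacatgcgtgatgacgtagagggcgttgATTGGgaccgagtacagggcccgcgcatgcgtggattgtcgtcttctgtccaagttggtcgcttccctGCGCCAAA
MBD4: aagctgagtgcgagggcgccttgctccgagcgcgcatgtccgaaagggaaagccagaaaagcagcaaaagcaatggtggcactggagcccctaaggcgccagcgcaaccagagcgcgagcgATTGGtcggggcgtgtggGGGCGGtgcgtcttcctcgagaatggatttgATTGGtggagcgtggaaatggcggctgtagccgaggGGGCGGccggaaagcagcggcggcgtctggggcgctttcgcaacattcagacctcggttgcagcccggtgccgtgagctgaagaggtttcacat
ERCC8: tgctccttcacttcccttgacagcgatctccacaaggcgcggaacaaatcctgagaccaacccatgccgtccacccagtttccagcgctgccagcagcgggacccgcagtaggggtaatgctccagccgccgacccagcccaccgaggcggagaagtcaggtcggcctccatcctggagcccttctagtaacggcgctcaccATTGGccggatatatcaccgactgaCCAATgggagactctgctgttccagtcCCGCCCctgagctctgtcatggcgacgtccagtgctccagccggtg

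MSH3 holds 2 overlapping E2F octamers on opposite strands and 4 GC boxes, and XRCC6 holds 1 octamer just after its start. Over all 27305 genes with a window, 1.4% hold an E2F octamer, 39.7% a CCAAT box and 48.3% a GC box. Only 15843 of these code for protein, as the repair and replication genes do, so the sets are unlike. Among the 33 repair genes 2 hold an E2F octamer, 20 a CCAAT box and 29 a GC box, and of 27 replication genes with a window 10 hold the octamer. The 2 repair genes with it did not share a direction, since MSH3 was lower and XRCC6 higher than in the control at both times by their brightest probe sets. A match is a description of letters only, and its absence says nothing about E2F at a gene.

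Among the glycosylases, 5 of 8 were higher at 24 h, beside 6022 of all 12351 measured genes. The 5 include TDG, at only 0.02. MBD4, which removes thymine and uracil opposite guanine at methylated sites, read 2621.5, 3335.1 and 4115 units. Both treated arrays were above the control, at a difference of 0.35 and then 0.65, or 1.57-fold, and 3.09% of measured genes were higher than that at 24 h. MBD4 has 4 probe sets, all higher at both times, but the other 3 reached only 0.04 to 0.21 at 24 h. Of these, 1 was brighter in the control, at 3147.2 units, and gave 0.06 and 0.21. MUTYH, which removes adenine paired with oxidised guanine, read 416.9, 569.2 and 522.8 units, a difference of 0.45 and 0.33 from its single probe set. SMUG1, a uracil glycosylase, was at 0.32 and 0.16 by its brightest probe set. NTHL1, which removes oxidised pyrimidines, read 379.1, 424.3 and 464.8 units, at 0.16 and 0.29.

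UNG, the main uracil glycosylase at replication forks, read 4610.6, 3657.9 and 3706.7 units. The treated arrays lay close together below the control, at -0.33 and -0.31. NEIL3, a glycosylase made mainly in dividing cells, read 1664.2, 1740.7 and 1462.7 units. It was at 0.06 at 12 h and -0.19 at 24 h, so the arrays lay on either side of the control.

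OGG1, the glycosylase for oxidised guanine, gave opposite answers from its probe sets. The brightest one read 593.2, 457.7 and 329.7 units, which is -0.37 at 12 h and -0.85 at 24 h, and 1.38% of measured genes were lower than that at 24 h. Another read 200.9, 266.4 and 286.8 units, which is 0.41 and 0.51. The last was above the floor on the 12 h array alone, at 70.2 units. The median over the probe sets was the value of this last probe set, 0.19 at 12 h and 0.00 at 24 h. That 0.00 was set by the floor, since its control and 24 h signals both lay under it. The others went opposite ways, so the arrays give no single direction for the gene.

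TDG, the thymine glycosylase that also acts in removing methylation marks, had probe sets that differed in size. Its brightest probe set was level at 4431.4, 4251.6 and 4484.9 units. The dimmer one went from 404.5 units in the control to 452.1 at 12 h and 801.2 at 24 h, a difference of 0.99 on that array alone.

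Later steps of base excision lay near the control, with medians of -0.05 and -0.02 over 6 genes. LIG3, the ligase that partners XRCC1, was the exception in size, at 827.2, 657.6 and 581.7 units. That is -0.33 and then -0.51, or 1.42-fold lower at 24 h. All 5 of its probe sets above the floor on every array were lower at 12 h, by -0.23 to -0.44, and at 24 h they ran from -0.57 to 0.13. XRCC1, the scaffold of single-strand break repair, read 599.5, 731.6 and 635.5 units, at 0.29 and 0.08, so the 12 h array alone stood clear of the control. PARP1, the main sensor of strand breaks, read 2332.9, 2321.3 and 2473.6 units, POLB, the gap-filling polymerase, stayed within 0.03, and APEX1, the endonuclease of abasic sites, was at -0.18 and -0.06. PARP2, which shares the sensing role, was at -0.08 and -0.23, and all 3 of its probe sets were lower at 24 h, while the other 2 were at 0.01 and 0.11 at 12 h.

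In mismatch repair MSH6, which pairs with a partner to find single mismatched bases, read 5525.3, 4426.3 and 4367.6 units. Both treated arrays were lower by nearly the same amount, -0.32 and -0.34, and its other probe set above the floor gave -0.31 and -0.16. MSH3, which serves larger loops, read 624.2, 537 and 573.5 units, or -0.22 and -0.12. A dimmer MSH3 probe set gave 0.23 at 12 h and -0.43 at 24 h, so only the 24 h direction was shared by both. Probe sets listed for both PMS2, the nuclease subunit of mismatch repair, and PMS2CL, a related copy, gave -0.02 and 0.28 at 12 h and 0.10 and 0.40 at 24 h, and cannot be given to either gene.

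Among the damage sensors of nucleotide excision, values went both ways. ERCC8, a subunit of the ligase that acts at stalled RNA polymerase, read 496.8, 653.3 and 720 units. It was higher on both treated arrays, at 0.40 and 0.54, though another of its 3 probe sets above the floor throughout was lower, at -0.37 and -0.23. ERCC6, the ATPase of the same transcription-coupled step, went the other way, with 175.9, 132.8 and 133.1 units, at -0.41 and -0.40. Both ERCC6 probe sets were lower at both times, and a probe set listed for ERCC6 and PGBD3, a gene nested in it, read 315.9, 283.7 and 294 units.

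DDB1 and DDB2 form the sensor of ultraviolet lesions in chromatin and differed in direction. DDB1, also the adaptor of CUL4 ubiquitin ligases, read 3999.3, 4426.2 and 5015.2 units, at 0.15 and 0.33. DDB2, the lesion-binding subunit, read 1079.4, 921.3 and 797.2 units, at -0.23 and -0.44, with 9.85% of measured genes lower at 24 h. Each has 1 probe set. RAD23B, which steadies the global-genome sensor, read 6389.6, 6265.3 and 5853.5 units, and XPA, which checks the opened lesion, was at -0.04 and 0.16.

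Of the TFIIH helicases, which open the helix, ERCC2 read 477.1, 527.2 and 490 units, at 0.14 and 0.04. Its dimmer probe set read 192.1, 154.1 and 181.1 units and lay on the other side of the control, at -0.32 and -0.09. ERCC3, the other helicase, was at -0.09 and 0.08. Of the nuclease subunits that cut beside the lesion, ERCC1 stood highest. It read 1049.3, 1422.5 and 1476.2 units, a difference of 0.44 and 0.49, or 1.41-fold at 24 h, with 6.42% of measured genes above it. Its 3 probe sets were all higher at both times, and 1 of them reached only 0.04 and 0.10. ERCC4, its catalytic partner, was at 0.08 and -0.04, and its dimmer probe set at -0.11 and 0.10, opposite in direction at both times. ERCC5, which cuts on the other side, read 600.4, 664.5 and 758.2 units, at 0.15 and 0.34 from 1 probe set.

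In end joining, all 6 genes were level with or lower than the 12 h array at 24 h by their brightest probe sets. Of all measured genes 51.7% were lower in that comparison. Other probe sets above the floor throughout gave 0.20 and 0.06 for XRCC4 and -0.07 and 0.09 for XRCC5. Those of LIG4, PRKDC and DCLRE1C were lower. PRKDC, the catalytic subunit of DNA-PK, read 5162.5, 4383.3 and 3893.4 units, or -0.24 and -0.41. Its other probe set above the floor throughout gave -0.27 and -0.34, so both were lower at both times. The Ku subunit XRCC6 read 10648.5, 11578.9 and 11235.7 units, at 0.12 and 0.08, and XRCC5, the other Ku subunit, 8905.7, 7944.4 and 7938.6 units, at -0.16 and -0.17. Another XRCC5 probe set gave -0.27 and -0.33, and a dimmer one -0.02 and 0.06, so those of XRCC5 did not share a direction at 24 h.

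LIG4, the ligase of end joining, read 731.9, 693.8 and 588.9 units, at -0.08 and -0.31, and both of its probe sets were lower at 24 h, while the dimmer one was at 0.23 at 12 h. XRCC4, its scaffold, read 550.1, 651.1 and 529.1 units, at 0.24 and -0.06. Its other 2 probe sets above the floor throughout were lower at both times, at -0.52 and -0.30 at 12 h. The probe set at -0.52 was the brightest in the control, at 687.6 units, and gave -0.33 at 24 h. The gene value of XRCC4 thus depends on how the probe set is chosen. DCLRE1C, the Artemis nuclease, stayed within 0.03 by its brightest probe set, and its 4 probe sets ran from -0.28 to 0.39 at 24 h. A probe set listed for both NHEJ1 and SLC23A3 read 426.5, 419.8 and 337.4 units and cannot be given to either.

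MGMT read 564.3, 691.1 and 696.7 units, at 0.29 and 0.30 from its 1 probe set. Both treated arrays were above the control by nearly the same amount.

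**Figure D2:**
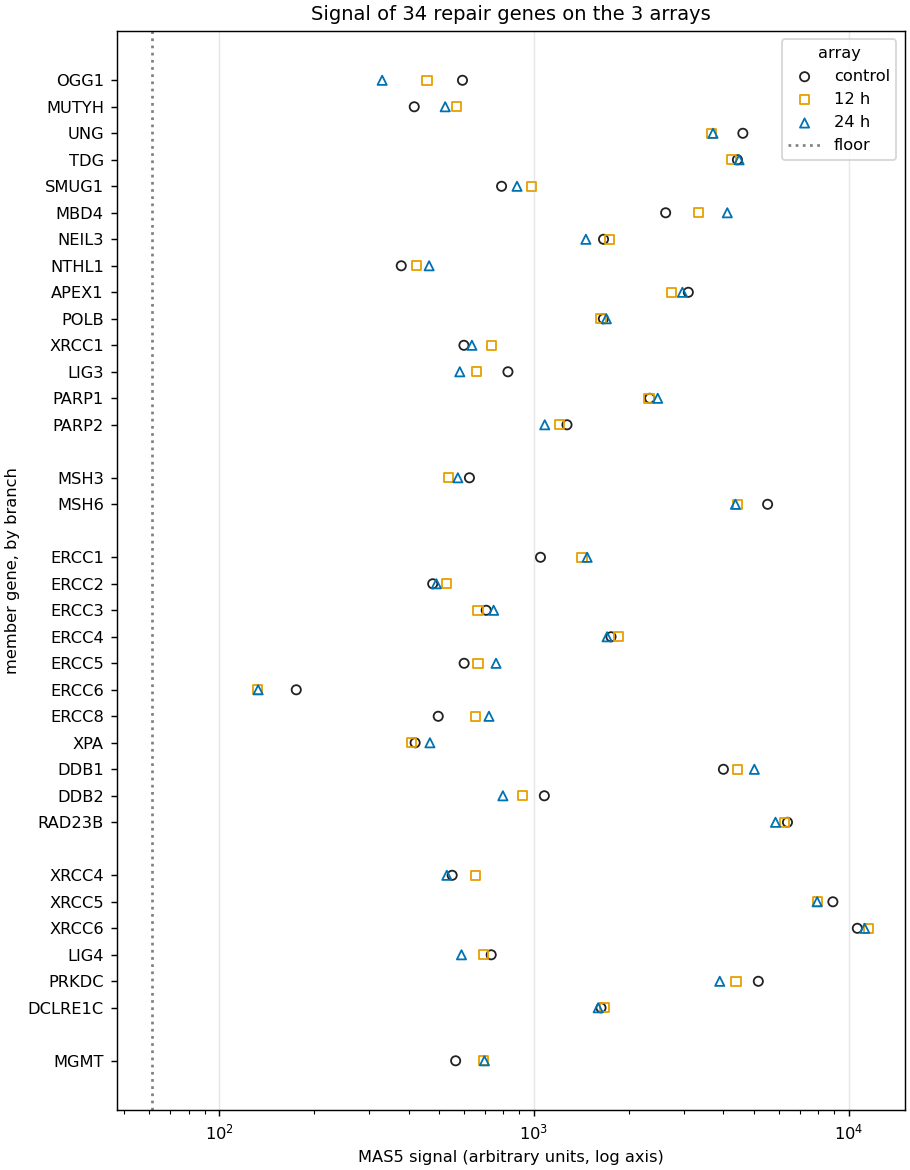
MAS5 signal (horizontal axis, arbitrary units, log axis) of the brightest single-gene probe set of 34 repair genes (vertical axis, by branch) on the control array (circles), the 12 h array (squares) and the 24 h array (triangles). All points lie right of the dotted floor at 61.4, and 19 of the 34 genes lie within 0.30 (log2) of the control at both times. Signals of different probe sets are on no common scale, so genes are not to be ranked by them.

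Agreement between probe sets of a gene shows how far a single value can be trusted here. For 19 repair genes at least 2 probe sets lay above the floor on all arrays. All probe sets of a gene shared a direction for 9 of the 19 at 12 h and 12 at 24 h, or 47.4% and 63.2%, beside 50.2% and 49.6% of 5636 genes of the array with such probe sets. At both times, SMUG1, MBD4 and ERCC1 were higher and MSH6, ERCC6, RAD23B and PRKDC lower in every such probe set. For RAD23B 1 of these was barely lower at 24 h, at 5953.2 units against 5955.1 in the control. The median gap between the highest and lowest probe set of a gene was 0.30 at 12 h and 0.27 at 24 h, which is as large as most of the differences given above.

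**Figure D3:**
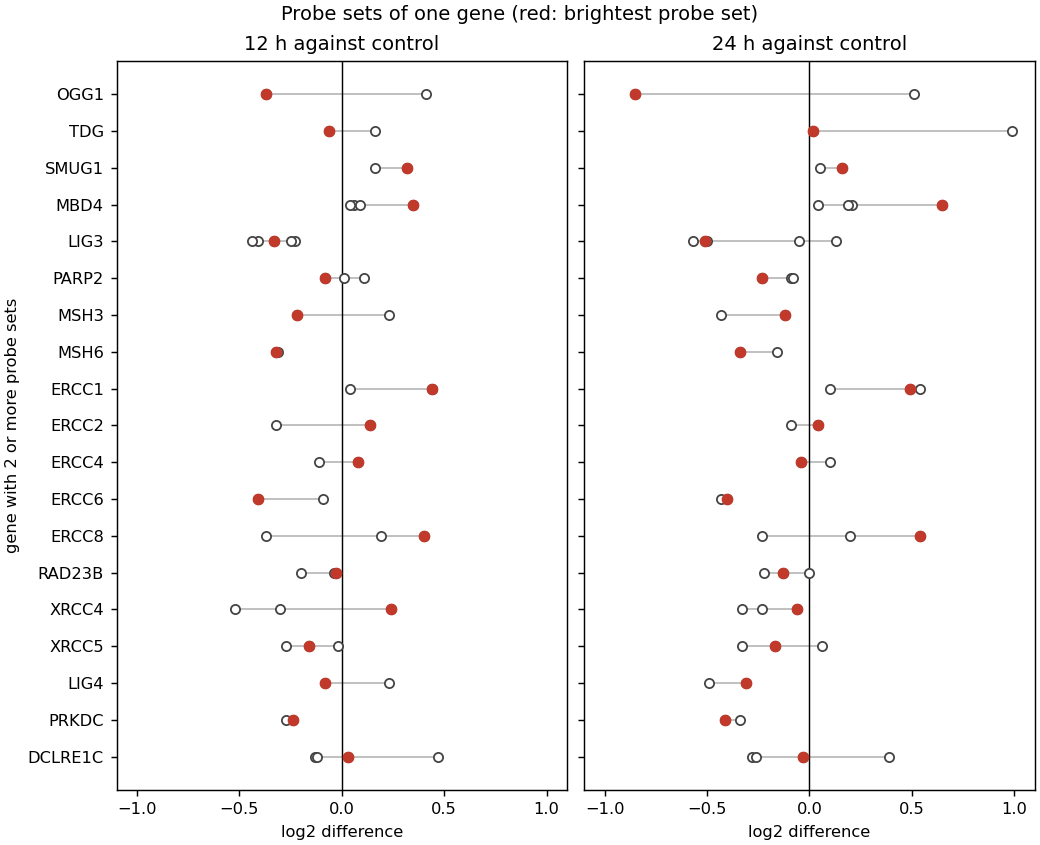
Log2 difference from the control of each single-gene probe set above the floor on all 3 arrays, for the 19 repair genes with at least 2, at 12 h (left) and 24 h (right). Red points are the brightest probe set, open points the others. OGG1 spans -0.85 to 0.51 at 24 h and TDG 0.02 to 0.99, while both probe sets of MSH6 and PRKDC lie left of the line at 0.

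Further genes of these pathways were read from a list of 47, of which 43 were measured. They were split by whether a fixed list of replication genes also holds them, which leaves RFC1, RFC2, RPA1 and RPA3, known to act in replication too, on the other side. All 9 in that list were lower at both times, at medians of -0.31 and -0.41. They include FEN1, the flap nuclease of long-patch base excision, at 5136.7, 3095.6 and 3285.6 units, or -0.73 and -0.64, and RFC3, a clamp loader subunit, at -0.31 and -0.46. Over the other 34 the medians were 0.07 and 0.03, with 14 and 16 of them lower. Of the replication factors among these, RFC1 was at -0.22 and -0.24, RFC2 at 0.09 and -0.31 and RPA3 at 0.09 and -0.05. The replication list as a whole had medians of -0.33 and -0.48 over 32 genes and was lower in 31 and 32 of them. Homologous recombination and Fanconi genes lay at -0.19 and -0.38 over 28 measured genes, 22 and 23 of them lower. The medians of the 34 repair genes, -0.02 and -0.01, were nearer 0 than those of both lists, a gap that has no test here.

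Outside the replication list a few pathway genes passed 1.5-fold. PARG, which removes the poly(ADP-ribose) chains that PARP1 builds, read 545.5, 288.3 and 340.5 units, at -0.92 and -0.68. MNAT1, which assembles the kinase part of TFIIH, read 995.9, 1641.5 and 1655.8 units, at 0.72 and 0.73. EXO1, the exonuclease of mismatch repair, was at -0.52 and -0.69. These 3, with FEN1, were the genes of the 43 that passed 1.5-fold at either time, beside the percentages of measured genes given above. That set depends on the processing. Over the alternatives FEN1 came as near the control as -0.56 at 12 h and -0.57 at 24 h, short of 1.5-fold (0.58). RFC3 went as low as -0.68 at 24 h, past it.

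Smaller differences came from the other genes with the largest mean difference of their branch. APTX, which repairs failed ligations, was at 0.35 and 0.38, and CETN2, a centrin of the lesion sensor, at 0.47 and 0.47. ALKBH3, a demethylase of direct reversal like MGMT, read 809, 1165.4 and 1189.9 units, at 0.53 and 0.56, and ALKBH2, its relative, was at 0.06 and 0.13. MLH3 was at 0.17 and 0.30, or -0.19 at 12 h as the median over its probe sets. TP53BP1, which protects broken ends for joining, was at 0.27 and 0.38, RIF1, its partner, at -0.18 and -0.27, RPA1, which coats single strands, at -0.21 and -0.23, XAB2 at -0.27 and -0.05, and HMGB1 at 0.05 and 0.10.

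**Figure D4:**
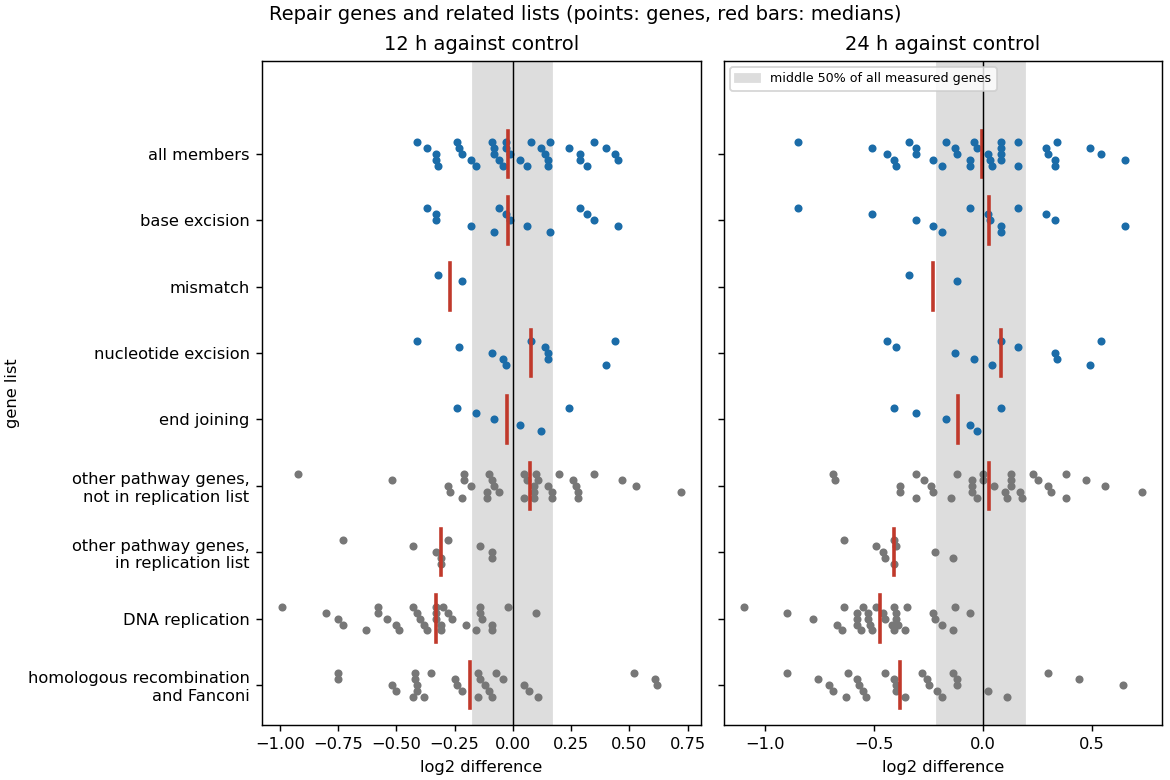
Log2 difference from the control at 12 h (left) and 24 h (right) for the measured genes of each list. Points are genes, blue for the repair genes described here and grey for other lists, red bars are medians, and the grey band holds the middle 50% of all measured genes. The 9 pathway genes shared with replication lie left of 0 at both times, at medians of -0.31 and -0.41, while the 34 repair genes spread around 0.

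Many repair genes share their start region with a neighbour read in the other direction. Of the 33 genes with a RefSeq window, 10 have one that overlaps the window of a protein-coding gene on the other strand, which is 30.3%, beside 11.3% of 15843 protein-coding genes with a window. In 9 of these pairs both genes were measured. Both genes of a pair lay on the same side of the control in 7 of the 9 at 12 h and 6 at 24 h. Over all 639 measured protein-coding pairs the shares were 48.5% and 52.7%, and 9 pairs from 1 array a group are too few to read a difference from that.

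ERCC8 and NDUFAF2, an assembly factor of mitochondrial complex I, start 135 bases apart and were both higher by their brightest probe sets. NDUFAF2 read 1878.5, 2361.2 and 2645.7 units, at 0.33 and 0.49, beside 0.40 and 0.54 for ERCC8. Of the other ERCC8 probe sets above the floor throughout, 1 gave 0.19 and 0.20 and 1 gave -0.37 and -0.23. MBD4 and IFT122, a transport protein of cilia, start 276 bases apart. IFT122 read 463.9, 667.3 and 573.1 units, at 0.52 and 0.30, but a transcript-specific probe set gave -0.16 and -0.06. DDB1 was paired with TKFC, a sugar kinase, which went from 82.6 units, near the floor, to 120.5 and 155, at 0.54 and 0.91.

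Other pairs parted. MUTYH at 0.45 and 0.33 stood against TOE1, an RNA exonuclease, at 920.6, 689.2 and 760.2 units, or -0.42 and -0.28. APEX1, slightly lower, stood against OSGEP, a tRNA-modifying enzyme, at 100.7, 163.7 and 188 units, or 0.70 and 0.90. XRCC4 and TMEM167A, at 0.23 and 0.24, were on the same side at 12 h only, by their brightest probe sets. The probe sets of both disagree in direction at 12 h. Those of TMEM167A disagree at 24 h too, where the dimmer one was at -0.03, on the side of XRCC4. For NTHL1 with TSC2, a brake on growth signalling, XRCC6 with DESI1 and LIG4 with ABHD13 both genes lay on the same side at both times. The partner differences were 0.16 and 0.04, 0.18 and 0.28, and -0.13 and -0.13. ABHD13 lay near the floor, at 83.1, 76.2 and 76.1 units, and the dimmer LIG4 probe set gave 0.23 and -0.49.

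**Figure D5:**
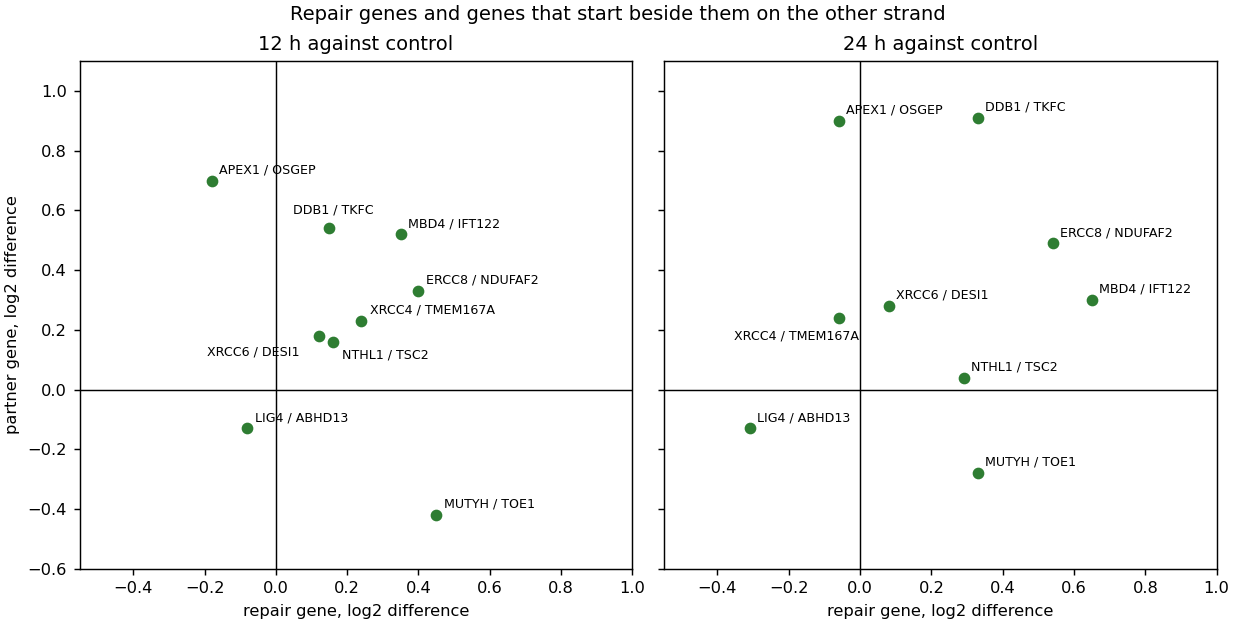
Log2 difference from the control of 9 repair genes (horizontal axis) and of the protein-coding genes that start beside them on the other strand (vertical axis), at 12 h (left) and 24 h (right). Each point is a pair, named repair gene first. Points in the upper right and lower left are pairs on the same side of the control, 7 of 9 at 12 h and 6 of 9 at 24 h.

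Between the treated arrays the repair genes differed little. The median of 24 h against 12 h was -0.01, and no repair gene passed 1.5-fold, as 1.46% of measured genes did upward and 1.91% downward. MBD4 was the furthest up at 0.30 and OGG1 the furthest down at -0.47. End-joining genes had a median of -0.12, nucleotide excision genes of 0.05 and base excision genes of -0.05.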

How the data were processed

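Gene expression was measured on 3 Affymetrix arrays of 54675 probe sets, 1 array a group. The deposited values are linear signal intensity, and the submitters' processing notes name MAS5. Which version and settings the authors used is not given in the sources used here. Each array's mean after trimming 2% from each end is 500, a common scaling that can hide a shift shared by most genes. Differences are log2 of signal over signal after the floor at the 50th percentile, computed with Python 3.11.15, and differences of genes near the floor are understated. The platform annotation gave 1 gene for 41097 probe sets, several for 1801 and none for 11777, and symbols of genes other than the members were updated through Entrez identifiers and RefSeq. Calls are counts past 1.5-fold, beside the same count over 12351 measured genes, and the script was tested on simulated data. The members, their branches, the gene lists and the tests were chosen with earlier results of these data known. Signal on each array is given for members past 1.5-fold, for the highest, lowest, brightest and dimmest of each branch, and for members whose probe sets disagree in direction with at least 1 past 1.5-fold, and some others were added after their values were seen. Of other lists up to 2 genes each way are named. Alternatives were median centring, quantile normalization and cyclic loess (limma 3.58.1), floors at the 25th and 65th percentile, no floor with a pseudocount of 1, the median over probe sets, and transcript-specific probe sets. The head-to-head pairs and promoter motifs were examined, and the alternatives for them and for other pathway genes and lists added, after the data were seen. The number of arrays limits the precision.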

Additional observations from a re-analysis of the deposited data

Results flagged for a closer look

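A probe set that the annotation lists for both NEIL1, a glycosylase for oxidised bases, and MIR631, a microRNA, entered no gene value. It read 42.4 units in the control, under the floor, and 87.8 at 12 h and 99.8 at 24 h, above it. Against the floor that is at least 1.43-fold higher at 12 h and at least 1.63-fold at 24 h. It drew attention because both treated arrays held signal where the control held none above the floor. Another probe set with the same listing read 2.5, 3.3 and 6.3 units, under the floor on all arrays. Neither probe set can be given to either gene, and with 1 array a group no spread can be set against these values.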

How the results depend on the processing

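The medians of the 34 repair genes stayed between -0.02 and 0.04 at 12 h and between -0.01 and 0.04 at 24 h under the 8 alternatives. The 24 h counts of 1 gene higher and 1 lower by 1.5-fold both became 0 with the median over probe sets and with transcript-specific ones. There MBD4 was at 0.20 and 0.04 and OGG1 at 0.00 and 0.00. Both OGG1 values come from 1 probe set, under the floor in the control (23.7 units) and at 24 h (43.1 units). They were fixed by the floor and do not measure an absence of change. TDG ran from 0.01 to 0.50 at 24 h over the settings. With the median over probe sets the mismatch median moved to -0.15 at 12 h and to -0.11 for 24 h against 12 h, and the nucleotide excision median to -0.04 at 12 h. With transcript-specific probe sets the recombination median at 12 h was -0.34. The cause was not tested, beyond the disagreement of probe sets given above. A median was taken to have moved when it differed by 0.1 or more. Of the 34 genes 22 kept 1 direction at 12 h and 29 at 24 h in every setting that measured them. Throughout, 11 were higher and 7 lower at both times. Most alternatives change only the scaling or the floor, and 13 of the 34 genes have 1 probe set, so kept directions were partly fixed in advance. ERCC8 counts as higher though 1 probe set gave -0.37 and -0.23, and LIG3 as lower though 1 gave 0.13 at 24 h. Transcript-specific probe sets measured 27 of the 34 genes and the floor at the 65th percentile 33. No paired analysis was possible because each group has 1 array.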
